A study of Mus musculus with 86 samples.

Results

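The genes described here are 8 markers of catecholaminergic and sympathoadrenal identity: Th, Ddc, Dbh, Slc18a1, Slc18a2, Phox2a, Hand2 and Gata3. They were taken by name from the RNA-seq libraries of mouse CAD and N2A cells, in which 38078 genes had at least some counts. All 8 are in the transcript index, and 7 of 8 entered at least 1 test, since Slc18a2 stayed below the filter on low counts in every model. CAD cells are a mouse line derived from a brain tumour of catecholaminergic cells and extend neurites when serum is removed. N2A (Neuro-2a) cells are a mouse neuroblastoma line, a tumour of the sympathetic lineage of the neural crest.

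In the CAD and N2A knockout experiments, both endogenous Tardbp alleles had been inactivated with CRISPR/Cas9, and HA-tagged TDP-43 came from a single-copy transgene that doxycycline switches off. The lines came from single-cell clones chosen for loss of endogenous TDP-43, and the paper does not state how many clones stand behind each line. Cells without doxycycline are called WT and cells given doxycycline for 48 h are called KO, so WT and KO cells carry the same edited alleles and differ in doxycycline itself as well as in TDP-43, and these cannot be told apart. In the transgene experiment, CAD cells that kept their endogenous Tardbp alleles expressed HA-tagged WT or Q331K TDP-43 from a doxycycline-inducible single-copy transgene with a synthetic 3′ UTR, as a selected pool of cells, and all of them received doxycycline. Q331K is a TDP-43 mutation linked to amyotrophic lateral sclerosis (ALS). In every experiment serum was withdrawn and cultures on porous membranes were scraped into a soma and a neurite fraction. Each of the 12 groups (experiment, genotype and fraction) held 3 libraries, 36 in all, and a scraped culture gave both a soma and a neurite fraction.

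Catecholamines are made from tyrosine in sequence. Tyrosine hydroxylase (Th) makes L-DOPA in the rate-limiting step, aromatic amino acid decarboxylase (Ddc) turns it into dopamine, and dopamine β-hydroxylase (Dbh), which works inside the vesicle, turns dopamine into noradrenaline. The vesicular monoamine transporters load these amines into vesicles, with VMAT1 (Slc18a1) typical of chromaffin and other endocrine cells and VMAT2 (Slc18a2) typical of neurons. Phox2a, Hand2 and Gata3 encode transcription factors that act in neural crest cells to establish the sympathetic neuron and adrenal chromaffin fates, and Phox2a binds the Dbh promoter through homeodomain sites.

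TDP-43 binds GU-rich RNA, and the study ties its targets to 3 of these 5-mers, written here in DNA letters: GTGTG, its shifted form TGTGT, and also GTATG. The richest 30-base stretches of the members' 3′ UTRs are shown because they hold the RNA letters that TDP-43 would read. They come from the GENCODE M21 transcripts of GRCm38, are written 5′ to 3′ on the gene's strand, and have the 5-mers in capitals. Th is at chr7:142892934-142892963 (minus strand), Dbh at chr2:27182861-27182890 (plus), Hand2 at chr8:57324140-57324169 (plus), Gata3 at chr2:9857686-9857715 (minus), Slc18a1 at chr8:69038196-69038225 (minus) and Phox2a at chr7:101822551-101822580 (plus).
Th: tcctggcccagaggctttcccaTGTGTGTG
Dbh: cagctcTGTGTagccctcccttccTGTGTG
Hand2: cTGTGTGTGaatgttccctcttggcTGTGT
Gata3: gagatttcagatctgggcaatggGTGTGTG
Slc18a1: gggaaataagcacttttcctaggtcTGTGT
Phox2a: acgagtcacctcccatccctagccaGTATG

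The members' 3′ UTRs differed widely in these 5-mers. In the longest annotated 3′ UTR, Ddc held 20.7 per kb and Dbh 12.5 per kb, above the third quartile of 7.08 per kb over 14388 tested genes. The Ddc value belongs to coding transcripts, Ddc-210, which had no counts in any group, and Ddc-201. Most Ddc counts in CAD and N2A soma of WT cells came from a non-coding transcript, so the value does not describe most of the Ddc RNA there. Hand2 and Gata3, at 7.76 and 7.74 per kb, lay just above that quartile, and Slc18a2, at 6.20 per kb, below it. Slc18a1 held 2.77 and Phox2a 1.72 per kb, against a median of 4.52 per kb over the tested genes. The value of Th depended on the transcript, since its longest 3′ UTR, of the transcript Th-203 (a predicted target of nonsense-mediated decay), held 4.71 per kb and that of its most-counted transcript Th-201 held 17.9 per kb. A 5-mer match is a description of the letters and not a binding site.

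**Figure D1:**
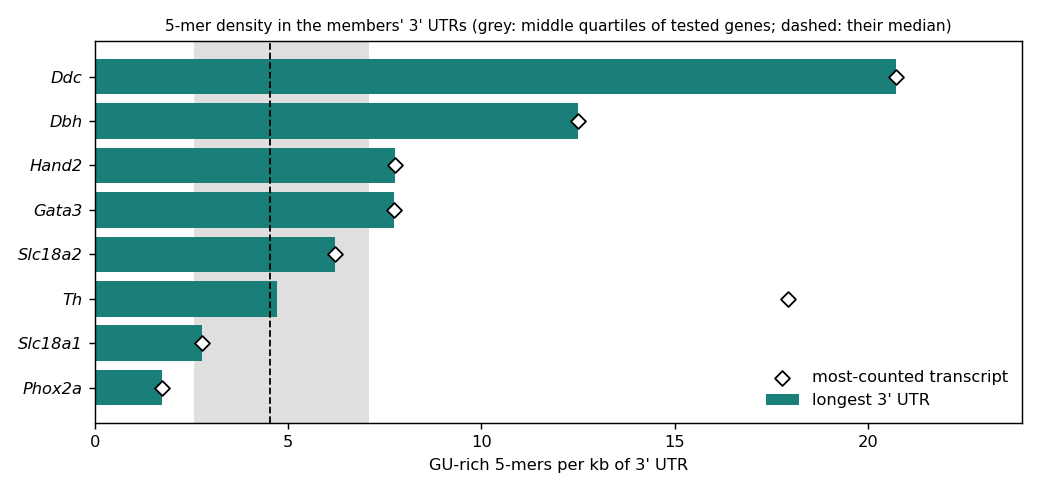
Bars give the number of GU-rich 5-mers per kb of the longest annotated 3′ UTR of each member. Diamonds give the same for its most-counted transcript among those with an annotated 3′ UTR. The grey band spans the middle quartiles of 14388 tested genes (2.56 to 7.08 per kb), with Ddc, Dbh, Hand2 and Gata3 above it, Phox2a below it, and a bar and diamond that differ only for Th.

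RefSeq promoters (GRCm38.p6, 250 bases before to 50 after the gene's start) matched 7 of 8 members, all except Slc18a1. Windows of the Th and Dbh promoters are shown because the knockout moved these 2 genes in opposite directions in CAD cells. In Th (chr7:142900020-142900049, minus strand) the capitals mark a cAMP response element (CRE, TGACGTCA) that starts at position -45 from the RefSeq transcript start, which differs from the outer GENCODE gene boundary given further on. In Dbh (chr2:27165341-27165370, plus strand) they mark the homeodomain core ATTA, 2 of the 3 copies in its promoter, which start at positions -157, -147 and -65 from its RefSeq transcript start.
Th: gaggggcttTGACGTCAgcctggcctttaa
Dbh: ccatgtgtcATTAgtgccaATTAggggaga
The CRE was in 1.79% of 32851 promoters of the same length (588, both strands searched), and among the members Slc18a2 also had 1. The core ATTA was in 58.0% of them, so its presence sets Dbh apart from few genes. Th had 2 matches as well, Hand2 5, Slc18a2 1, and Ddc 2 and 3 in its separate promoters. Matches to CANNTG, the E-box that Hand2-type factors read, were in 72.3% of promoters, with 2 in Dbh and 2 in Hand2. Th, Slc18a2, Phox2a and Gata3 had 1 each. Matches to GATA were in 57.9%, with 3 in Slc18a2, 2 in Hand2, and 1 each in Phox2a and Gata3. Any link between these matches and the knockout changes was not tested.

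CAD and N2A libraries held 22726534 to 32895542 estimated counts and the transgene libraries 9783050 to 15870647. As a check of the labels, Tardbp fell in KO cells by 2.52 on the log2 scale in CAD soma, 1.89 in CAD neurites, 1.78 in N2A soma and 1.41 in N2A neurites, while its transcript sum in the transgene experiment was at 758 to 847 CPM (group means; CPM is counts scaled to library size) and did not pass the test between Q331K and WT. Neuronal markers such as Prph (peripherin; 453 to 1936 TPM, which scales by transcript length and depth) were high in all libraries, but Rbfox3, Nefl and Nefm stayed below 1 TPM in every library. No glial marker of 8 exceeded 10 TPM in any library, and the summed level of 11 fibroblast, immune and endothelial markers was 1.22 to 32.7 TPM. A set of 6 proliferation genes rose with the knockout in both lines, with summed levels in CAD soma of 69.1 to 103 TPM in WT and 125 to 155 TPM in KO cells, and in N2A soma of 97.2 to 112 TPM and 201 to 237 TPM. Their part in the results below was not tested. All tests below are edgeR's quasi-likelihood test with Benjamini-Hochberg adjustment over all genes tested, and a gene was called at an adjusted p below 0.01. Where groups of libraries are said not to overlap, the share of all genes without overlap is not given here. Bulk RNA cannot tell fewer cells with a transcript from less of it per cell.

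The levels of the members spanned several orders of magnitude, with Hand2 and Phox2a far above the enzymes and Gata3 in their range. On the TPM scale, which divides by transcript length and so allows genes to be compared, Hand2 ran from 67.5 to 491 and Phox2a from 60.6 to 326 over the 36 libraries. Gata3 ran from 0.601 to 15.9, Dbh from 0.190 to 52.3 and Slc18a1 from 0.283 to 30.7. The first enzyme of the pathway was low throughout, with Th at 0.0941 to 6.61 TPM and 8 to 111 estimated counts per library. Ddc stayed at 0 to 1.62 TPM and at most 30 counts, and most of its counts in CAD and N2A soma of WT cells (81.1% and 81.0%) came from Ddc-208, a transcript annotated as non-coding. Slc18a2 had 0 to 10 estimated counts in every library, at most 0.243 TPM. The carriers that take noradrenaline and dopamine back into the cell, Slc6a2 and Slc6a3, were below 1 TPM in every library as well. Both lines thus held RNA of the regulators and, in CAD cells, of Dbh and VMAT1, with little or no RNA of the decarboxylase, the neuronal vesicular transporter and the plasma membrane transporters, so the name catecholaminergic is used here for the genes and not for the cells.

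**Figure D2:**
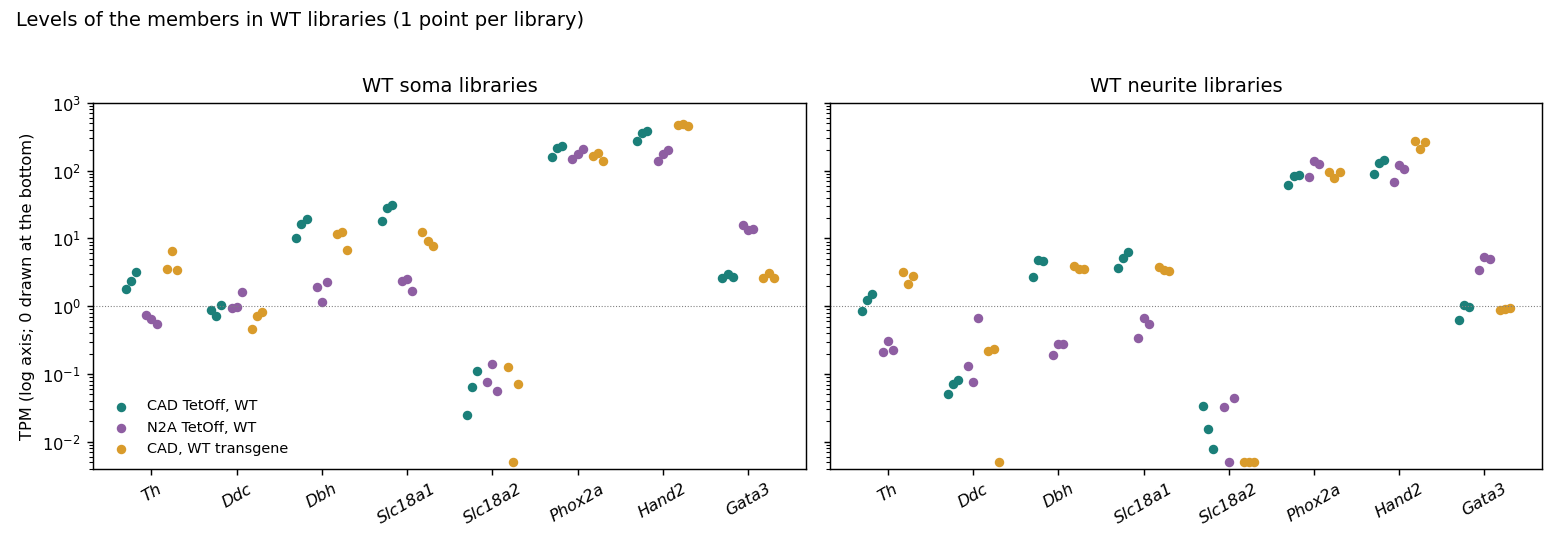
Points give the TPM of each member in each WT library (log axis, values of 0 drawn at the bottom), in soma (left) and neurites (right), coloured by experiment. Hand2 and Phox2a lie above 60 TPM in these 18 libraries, Slc18a2 lies at or below 0.143 TPM, and the CAD points of Dbh and Slc18a1 lie above the N2A points.

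The wider lists also held both detected and undetected genes. Of 15 sympathoadrenal regulators, 13 reached 1 TPM in some library, among them Ret, the receptor for GDNF-family ligands, at 28.4 to 499 TPM. Of 15 neural crest genes, 5 never reached 1 TPM, including Sox10 and Foxd3, which mark crest progenitors and glia. Others of that list were detected, with Ngfr at 5.05 to 97.2 TPM, Sox9 at 2.43 to 23.4 TPM and Erbb3 at 0.975 to 10.3 TPM. Of 9 regulators of midbrain dopamine neurons, 7 never reached 1 TPM, including Pitx3, Lmx1a, Lmx1b and En1. Nr4a2, at 0.737 to 22.3 TPM, and Foxa1, at 1.12 to 20.1 TPM, did. In the list of cofactor and synthesis genes, 7 of 8 exceeded 10 TPM in some library, with Gch1, the first enzyme of tetrahydrobiopterin synthesis, at 20.3 to 99.8 TPM, and only Pnmt, which makes adrenaline, stayed below 1 TPM.

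The first question was how far the lines differ before TDP-43 is lost. In WT soma, 6 of 7 tested members differed between CAD and N2A cells, 5 higher and 1 lower in CAD, against a background of 51.2% of 19700 tested genes called. The median log2 fold change was 1.20 for the members and -0.07 for all tested genes. Line, clone, growth medium and preparation cannot be told apart in this comparison. The CPM values are scaled within each experiment, so their ratios between lines differ somewhat from the folds of the joint model.

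Dbh and Slc18a1 set the lines apart most. The 3 CAD WT soma libraries held Dbh at 18.9, 25.5 and 27.0 CPM, and the N2A libraries held it at 1.68, 1.92 and 1.79 CPM. The groups did not overlap, and the log2 fold change was 3.94 (standard error 0.16, adjusted p = 1.9e-16, 15.4-fold). Slc18a1 was at 33.3, 38.9 and 40.8 CPM in CAD and at 3.65, 3.04 and 2.77 CPM in N2A, 13.9-fold higher in CAD (standard error of the log2 fold change 0.12, adjusted p = 2.9e-18). Th was higher in CAD (log2 fold change 2.00, adjusted p = 1.9e-06), from a low level of 0.541 to 0.717 CPM in N2A cells. Of the regulators, Hand2 was higher in CAD by 1.20 on the log2 scale (159, 187 and 192 CPM in N2A against 331.3, 352 and 378 CPM in CAD). Gata3 was the member that was lower in CAD, with a log2 fold change of -1.88 (3.67-fold higher in N2A), with 19.0 to 19.7 CPM in N2A and 3.93 to 5.03 CPM in CAD. Phox2a was higher in CAD by 0.44 (adjusted p = 0.0011), a call lost with upper-quartile scaling (0.24, adjusted p = 0.011) and without replicate 2 (adjusted p = 0.041). Ddc was at 0.437 to 0.685 CPM in CAD and 0.769 to 0.879 CPM in N2A and was not called (adjusted p = 0.61).

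In WT neurites, 5 of 7 tested members were called, 4 higher and 1 lower in CAD, against a background of 47.1%, with a median of 0.73 for the members and -0.06 for all genes. The log2 fold changes were 4.28 for Dbh, 3.84 for Slc18a1, 2.57 for Th, 0.73 for Hand2 and -2.02 for Gata3. Phox2a was at 129 to 144 CPM in CAD and 166 to 177 CPM in N2A neurites and was not called (adjusted p = 0.34). Of the members called in either fraction, Dbh, Slc18a1, Th, Hand2 and Gata3 thus had the same direction in soma and neurites.

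The lists around the members are read against the same share of 51.2% of all genes called. Of 13 tested sympathoadrenal regulators, 10 were higher and 1 lower in CAD soma, and the 6 of 10 neural crest genes called were near that share. Mycn, the oncogene amplified in many neuroblastomas, was at 76.3 to 117 TPM in CAD and 14.4 to 23.9 TPM in N2A soma. Tlx2, a homeobox gene of enteric and sympathetic neurons, was at 11.0 to 17.1 TPM in CAD soma and had no counts in N2A soma. Of 10 tested neural crest genes, 5 were higher and 1 lower in CAD, with Msx1 at 5.52 to 7.85 TPM against at most 0.0477 TPM and Pax3 lower at 0.0733 to 0.280 TPM against 0.786 to 1.002 TPM. Monoamine oxidase A (Maoa), which breaks down noradrenaline, was at 8.72 to 11.9 TPM in CAD and 0.0824 to 0.105 TPM in N2A soma. Neuropeptide Y (Npy), which is stored with noradrenaline in sympathetic neurons, was at 14.2 to 25.3 TPM in CAD and had no counts in N2A soma. The dopamine receptor gene Drd1 was at 5.2995 to 8.18 TPM against 0.1005 to 0.252 TPM. CAD cells also held Slc18a3, the vesicular acetylcholine transporter (8.06 to 13.6 TPM in WT soma, with no counts in N2A WT soma), while Fev, a regulator of serotonin neurons, was at 3.83 to 4.15 TPM in N2A and 0.0395 to 0.516 TPM in CAD.

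The next question was what losing TDP-43 did to the members in CAD soma. Dbh rose while Slc18a1 and Th fell, and the regulators did not pass the test. In all, 3 of 7 tested members were called, 1 higher and 2 lower, against a background of 22.8% of 17343 tested genes, and the median log2 fold change was 0.12 for the members and 0.0022 for all tested genes.

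Dbh, which turns dopamine into noradrenaline, was at 62.2, 70.8 and 57.6 CPM in KO soma and at 18.9, 25.5 and 27.0 CPM in WT soma. Every KO library lay above every WT library, with means of 63.5 ± 6.72 CPM and 23.8 ± 4.29 CPM (SD, n = 3). The log2 fold change was 1.42 (standard error 0.11, adjusted p = 5.7e-08), a 2.67-fold rise, and it stayed between 1.30 and 1.58 with each replicate left out in turn. Slc18a1 went the other way, at 16.4, 15.8 and 16.98 CPM in KO soma and at 33.3, 38.9 and 40.8 CPM in WT soma. The groups did not overlap, and the log2 fold change was -1.20 (standard error 0.08, adjusted p = 1.9e-08), to 0.436 of the WT level. Th was at 1.33, 1.03 and 1.61 CPM in KO soma and 2.29, 1.83 and 2.60 CPM in WT soma, so the groups did not overlap either, although these levels rest on 37 to 92 estimated counts per library. Its log2 fold change was -0.75 (standard error 0.20, adjusted p = 0.0093). The call of Th was lost without the filter on low counts (adjusted p = 0.011), with length-scaled counts (0.095) and without replicate 1, 2 or 3 (0.058, 0.051 and 0.048).

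Among the regulators in CAD soma, Hand2 was at 375, 461 and 401 CPM in KO and 331.3, 352 and 378 CPM in WT libraries, which overlap, with an adjusted p = 0.047. Phox2a was at 113 to 128 CPM in KO and 102 to 126 CPM in WT soma (adjusted p = 0.27), and Gata3 at 3.64 to 4.43 CPM and 3.93 to 5.03 CPM (adjusted p = 0.58). Ddc was at 0.390 to 0.950 CPM and 0.437 to 0.685 CPM (adjusted p = 0.88).

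The same 3 members were called in CAD neurites, in the same directions, against a background of 25.3%, with a median of 0.01 for the members and 0.0040 for all genes. Dbh was at 53.5, 53.8 and 51.0 CPM in KO neurites and 19.4, 21.7 and 20.5 CPM in WT neurites, a log2 fold change of 1.36 (standard error 0.11, adjusted p = 1.2e-07). Slc18a1 was at 16.4, 14.8 and 14.5 CPM and 28.7, 27.2 and 28.1 CPM, a log2 fold change of -0.88 (standard error 0.09, adjusted p = 8.5e-07). Th was at 1.92, 1.47 and 1.69 CPM and 3.75, 3.94 and 4.07 CPM, a log2 fold change of -1.21 (standard error 0.21, adjusted p = 0.00022). None of the 3 genes had overlapping groups, and in neurites the call of Th held under every alternative in which it was tested.

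Ddc in CAD neurites came close to the threshold on very few counts. It was at 0.409, 0.597 and 1.03 CPM in KO and 0.177, 0.222 and 0.183 CPM in WT neurites, with an adjusted p = 0.0107 and a log2 value of 1.79 (standard error 0.50). The KO libraries all lay above the WT libraries, and the adjusted p was 0.0093 with DESeq2, 0.0088 without the filter and 0.0083 with length-scaled counts, but 0.185 without replicate 3. Phox2a (adjusted p = 0.96), Hand2 (0.43) and Gata3 (0.073) were not called in CAD neurites, although the KO libraries of Gata3 (2.82 to 4.04 CPM) all lay below the WT libraries (4.22 to 5.41 CPM).

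**Figure D3:**
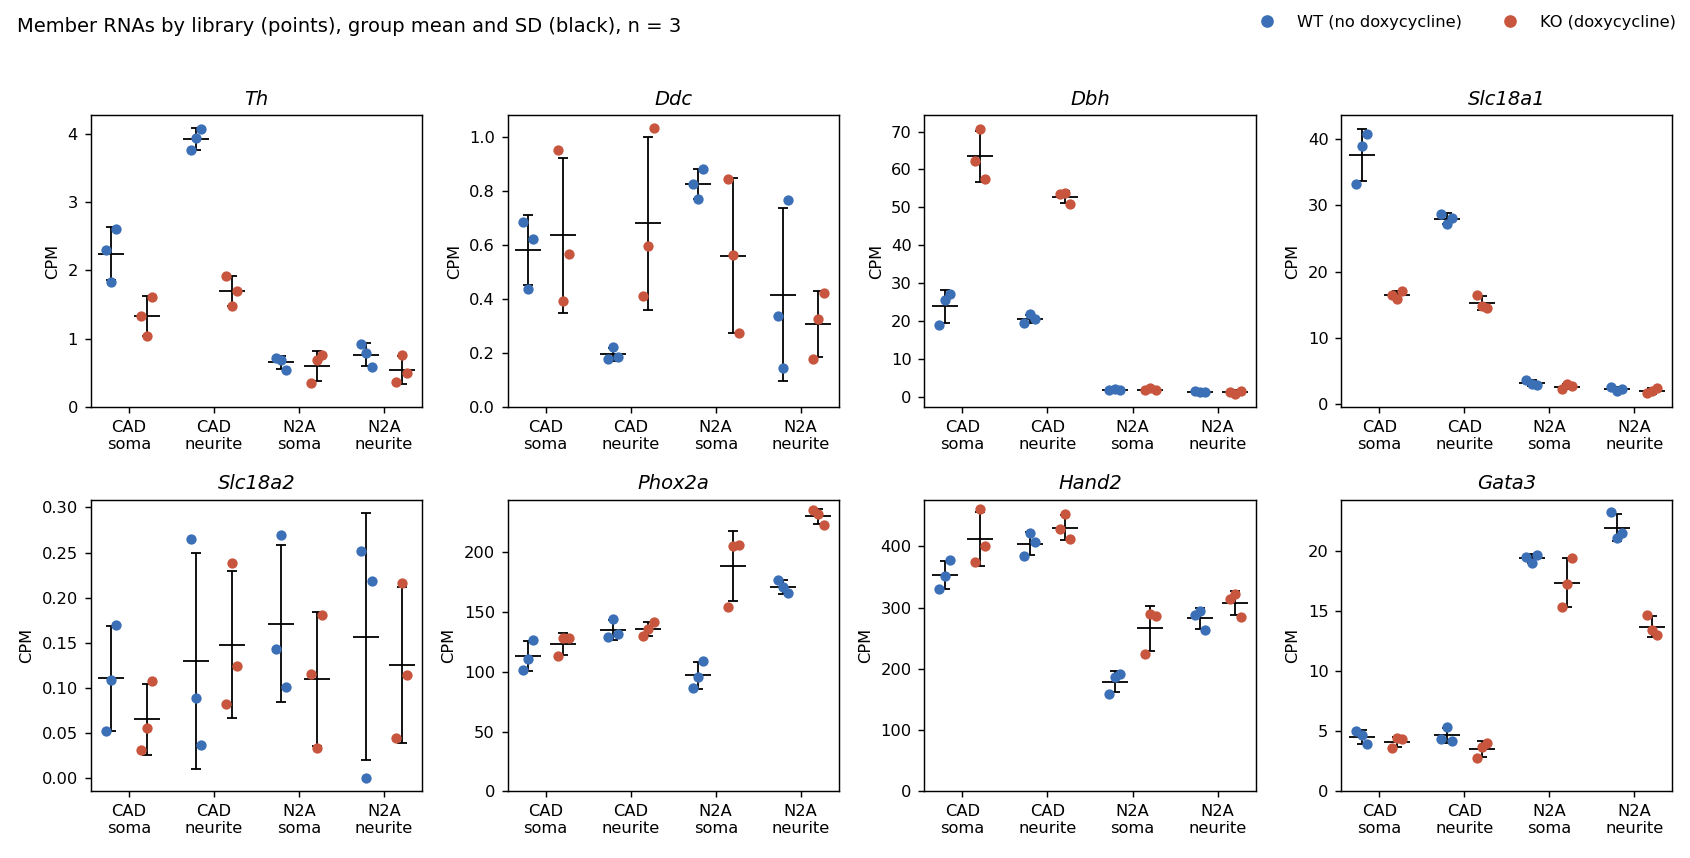
Each panel is 1 member, and each point is the CPM of 1 library, by line, fraction and genotype, with group means. In CAD cells, Dbh is higher and Slc18a1 and Th are lower in KO than in WT libraries in both fractions, and in N2A soma Phox2a and Hand2 are higher in KO.

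The lists chosen for the pathway are given for CAD soma beside the 22.8% of all genes called there. Of 7 tested cofactor and synthesis genes, 2 rose and 1 fell: Gch1 (0.60 on the log2 scale) and Spr (0.44), enzymes of tetrahydrobiopterin synthesis, and Pcbd1 (-0.43), which recycles it. Of 3 tested breakdown genes, the aldehyde dehydrogenase Aldh2 rose by 0.39 and Maoa fell by 0.46. Of 8 tested uptake and receptor genes, Adra2b, an adrenergic receptor, rose by 0.75 and Drd1 fell by 1.99. The medians of these 3 lists were 0.03, -0.25 and -0.14, against 0.0022 for all genes.

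Of 12 tested dense-core vesicle genes in CAD soma, 3 rose and 3 fell, with a list median of -0.09. Chromogranin B (Chgb), a core protein of the granules that hold catecholamines, rose by 1.08. Npy fell by 2.02, the prohormone convertase Pcsk2 by 1.32 and the neuropeptide gene Vip by 1.10. The list thus held genes that moved in both directions.

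Of 13 tested sympathoadrenal regulators in CAD soma, 2 rose and 5 fell, with a list median of -0.15. Insm1, a zinc finger factor of sympathoadrenal and endocrine cells, rose by 1.07 and Gata2 by 0.95. Isl1, a LIM homeodomain factor, fell by 0.94 and Tfap2a, the crest factor AP-2α, fell by 0.80. Of 10 tested neural crest genes, Erbb3 rose by 0.71 and 3 fell, Snai1 by 1.42, Sox9 by 0.41 and the neurotrophin receptor gene Ngfr by 0.39. All 6 proliferation genes rose, Mki67 by 2.33 and Ccnb1 by 2.23. Of 9 tested neuronal markers, Syp (0.71), Elavl4 (0.46) and Uchl1 (0.35) rose and Stmn2 fell by 0.50.

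In CAD neurites 25.3% of all tested genes were called, 2038 higher and 2342 lower. Beside this share, the called genes of the lists were 1 rise (Gch1, 0.67) and 1 fall (Pcbd1, -0.40) of 7 for cofactors, 1 fall of 3 for breakdown, and 1 rise (Adra2b, 0.66) and 2 falls of 8 for receptors (Drd1, -1.59, and Drd2, -1.15). Dense-core vesicle genes had 4 rises and 4 falls of 12, with Chgb at 1.21 and Npy at -1.70. Sympathoadrenal regulators had 2 rises and 3 falls of 13, with Insm1 at 1.004 and Tfap2a at -0.92, and neural crest genes 1 rise (Erbb3, 0.53) and 2 falls (Snai1, -1.22, and Ngfr, -0.48) of 10. The cholinergic transporter Slc18a3 was the only one of 8 tested genes of other transmitters called in either fraction of CAD cells, at -0.80 in soma and -0.87 in neurites.

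In N2A soma the members that moved were the regulators. Phox2a and Hand2 rose, so 2 of 7 tested members were called, both higher, against a background of 16.1% of 17912 tested genes. The median log2 fold change was -0.11 for the members and -0.02 for all tested genes. Deviations from the group mean correlated at 0.124 to 0.534 between WT and KO libraries of the same replicate number. The correlation was highest with the own number for 2 of 3 numbers, so pairing by number is not certain. Both calls held with the replicate number as a block.

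Phox2a, which switches on noradrenergic genes, was at 155, 206 and 206 CPM in KO soma and 86.2, 95.9 and 109 CPM in WT soma. The lowest KO library lay above the highest WT library, and the log2 fold change was 0.96 (standard error 0.11, adjusted p = 1.5e-05, 1.94-fold). Hand2, which works with Phox2a and Gata factors, was at 224, 290 and 286 CPM in KO and 159, 187 and 192 CPM in WT soma, a log2 fold change of 0.57 (standard error 0.10, adjusted p = 0.00095) that was no longer called without replicate 2 (0.63, adjusted p = 0.053). With upper-quartile scaling the median of all genes in this comparison shifted to -0.12 and both members stayed called. Gata3 was at 15.4 to 19.5 CPM in KO and 19.0 to 19.7 CPM in WT soma (adjusted p = 0.20).

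The enzyme and transporter genes were near the lower end of detection in N2A soma and none was called. Dbh was at 1.65 to 2.21 CPM in KO and 1.68 to 1.92 CPM in WT soma (adjusted p = 0.94), and Slc18a1 at 2.19 to 2.93 CPM and 2.77 to 3.65 CPM (adjusted p = 0.36). Th was at 0.345 to 0.755 CPM and 0.541 to 0.717 CPM (adjusted p = 0.86).

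In N2A neurites, 2 of 7 tested members were called, Phox2a higher and Gata3 lower, against a background of 11.6%, with a median of -0.22 for the members and -0.01 for all genes. Gata3 was at 14.7, 13.5 and 12.998 CPM in KO and 23.3, 21.1 and 21.6 CPM in WT neurites. The groups did not overlap, and the log2 fold change was -0.68 (standard error 0.09, adjusted p = 9.1e-05), with an adjusted p = 0.033 without replicate 2. Phox2a was at 235, 232 and 223 CPM in KO and 177, 171 and 166 CPM in WT neurites, which do not overlap either. Its log2 fold change of 0.43 (standard error 0.11, adjusted p = 0.0099) was close to the threshold and lost the call with length-scaled counts (adjusted p = 0.044), without replicate 2 (0.23) and without replicate 3 (0.046). Hand2 was at 285 to 323 CPM in KO and 263 to 295 CPM in WT neurites (adjusted p = 0.47).

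**Figure D4:**
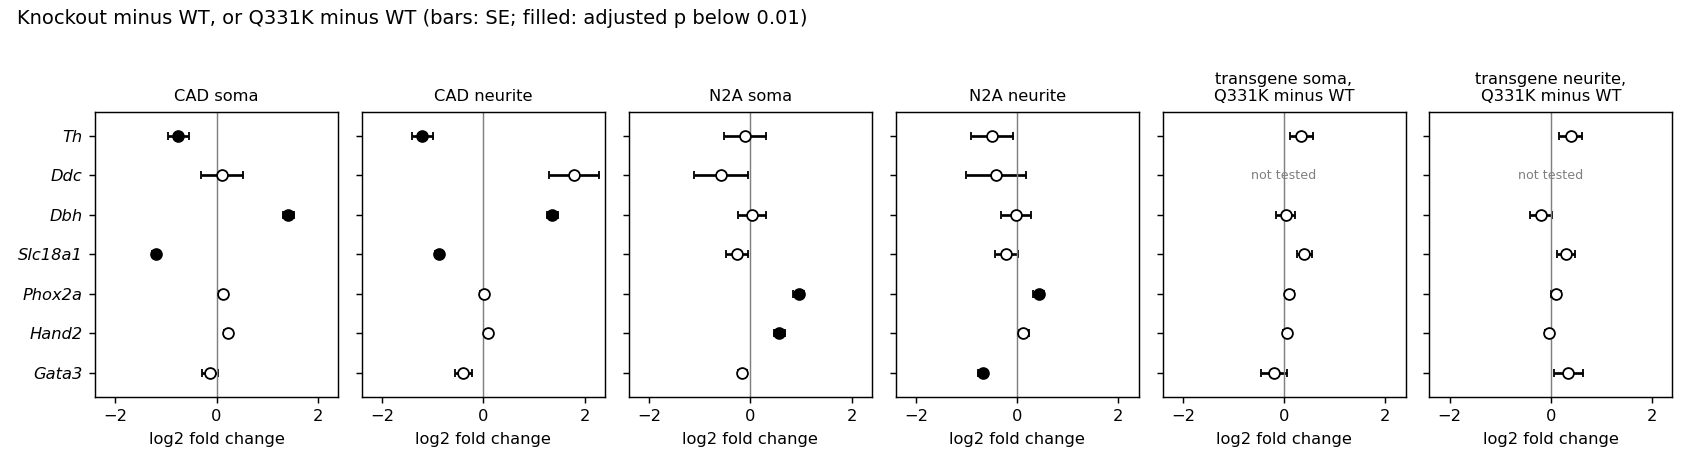
Points give the log2 fold change of each tested member in the knockout and Q331K comparisons of soma and neurites, with bars of 1 standard error and filled points for adjusted p below 0.01. Dbh lies to the right and Slc18a1 and Th to the left in CAD cells, Phox2a lies to the right in N2A cells, and no point of the Q331K comparisons is filled.

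The surrounding lists in N2A soma differed among themselves, and over all tested genes 16.1% were called, 1955 higher and 922 lower. Of 11 tested sympathoadrenal regulators, 5 rose, with Insm1 at 1.23, Gata2 at 0.99, Tbx2 at 0.85 and Tbx20 at 0.61 on the log2 scale and a list median of 0.45. In N2A neurites 4 of 11 rose, led by Ret (0.65) and Insm1 (0.65), while over all tested genes 11.6% were called there, 1161 higher and 913 lower. Of 9 tested dense-core vesicle genes, Chgb (0.67) and the other chromogranin gene Chga (0.45) rose in soma and Pam fell by 0.35, and in neurites Chgb rose by 1.03 and Chga by 0.77. The list medians in soma were -0.22 for dense-core vesicle genes, 0.07 for neural crest genes, 0.11 for cofactor genes, 0.26 for breakdown genes and -0.88 for uptake and receptor genes. Qdpr (0.42) of 7 cofactor genes, Aldh2 (0.68) of 3 breakdown genes and Ngfr (0.74) of 7 neural crest genes rose in soma, and in neurites Pcbd1 fell by 0.48 and Ngfr rose by 1.26. All 6 proliferation genes rose in N2A soma, Top2a by 1.47 and Ccnb1 by 1.36, and 4 of 6 rose in neurites. Of 9 tested neuronal markers in N2A soma, Elavl4 (0.59), Tubb3 (0.49) and Gap43 (0.43) rose, with a list median of -0.02.

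**Figure D5:**
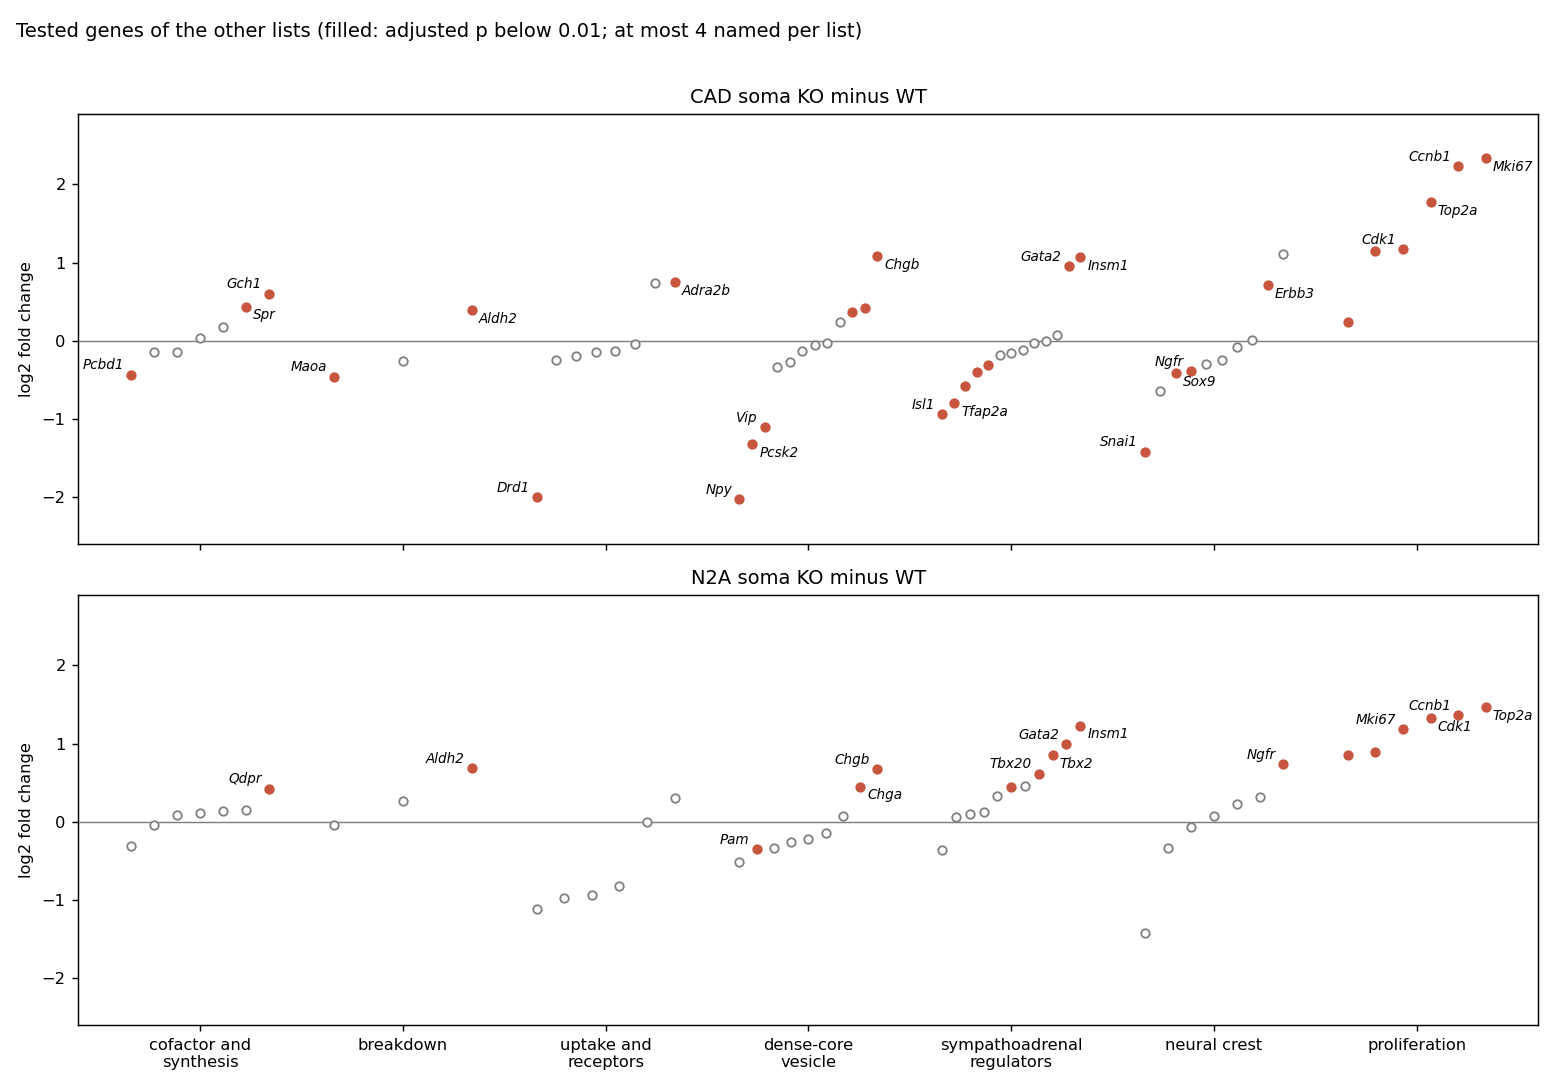
Points give the log2 fold change, KO minus WT, of every tested gene in 7 lists around the members, in CAD soma (top) and N2A soma (bottom), ordered by value within each list. In the sympathoadrenal list, filled points lie on both sides of 0 in CAD cells and above 0 in N2A cells, and all 6 proliferation genes are filled and above 0 in both lines.

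Whether the lines responded differently was tested directly, as the knockout effect in CAD minus that in N2A cells in 1 model of 24 libraries. In soma, 3 of 7 tested members differed, 1 higher and 2 lower in CAD, against a background of 10.5% of 19700 genes, with a median of -0.43 for the members and -0.02 for all genes. The effect on Dbh was higher in CAD by 1.30 (standard error 0.24, adjusted p = 0.00040). The effects on Slc18a1 and Phox2a were lower in CAD, at -1.02 (standard error 0.18, adjusted p = 0.00029) and -0.91 (standard error 0.15, adjusted p = 0.00016). All 3 calls were lost without replicate 2, at adjusted p = 0.011 for Dbh, 0.087 for Slc18a1 and 0.047 for Phox2a, and that of Slc18a1 also without replicate 3 (0.025) and with length-scaled counts (0.013). Hand2 (adjusted p = 0.042), Th (0.22), Gata3 (0.86) and Ddc (0.55) were not called.

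In neurites, 1 of 7 tested members differed between the lines in its knockout effect, against a background of 9.18%, with a median of -0.09 for the members and -0.01 for all genes. It was Dbh, at 1.33 (standard error 0.28, adjusted p = 0.0013), and the call was lost with length-scaled counts (adjusted p = 0.019), without replicate 1 (0.020) and without replicate 2 (0.031). Slc18a1 (adjusted p = 0.013) and Phox2a (0.035) were not called. Among the sympathoadrenal regulators, the soma effect was lower in CAD for 4 of 13 tested genes, including Tbx2 (-1.11), Isl1 (-1.07) and Tbx20 (-0.84), and of 10 tested neural crest genes it was lower for Ngfr (-1.20) and Sox9 (-0.81) and higher for Erbb3 (0.56). Over all tested genes the soma effect was called for 10.5%, with 1550 lower and 520 higher in CAD, so most calls were on the lower side.

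The localization ratio (LR) is the log2 of a gene's neurite level over its soma level, so positive values mark RNAs that are relatively enriched in neurites. Both fractions come from the same scraped cultures, but the main LR tests held no term for culture. With a block for culture, taking the replicate number as the culture, the 5 called LR values of the members all kept their calls. In WT CAD cells, 2 of 7 tested members had an LR that passed the test, 1 above and 1 below 0, against a background of 41.3%, with a median of 0.03 for the members and -0.02 for all genes. Th was higher in neurites on the tested scale, with 3.75, 3.94 and 4.07 CPM there and 2.29, 1.83 and 2.60 CPM in soma (LR 0.81, standard error 0.19, adjusted p = 0.0024). On the TPM scale the same libraries ran the other way, at 0.839, 1.24 and 1.497 TPM in neurites and 1.81, 2.33 and 3.18 TPM in soma. Slc18a1 was depleted, at 28.7, 27.2 and 28.1 CPM against 33.3, 38.9 and 40.8 CPM (LR -0.43, standard error 0.08, adjusted p = 0.00034). The call of Th was lost with length-scaled counts (adjusted p = 0.031) and without replicate 1, 2 or 3 (0.016, 0.033 and 0.012), and that of Slc18a1 without replicate 2 (0.026) or 3 (0.012). Phox2a (adjusted p = 0.013) and Ddc (0.014) came near the threshold, and Hand2 (0.054), Dbh (0.12) and Gata3 (0.87) were further from it.

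In WT N2A cells, 2 of 7 tested members had a called LR, both above 0, against a background of 59.2%, with a median of 0.18 for the members and -0.03 for all genes. Phox2a was at 177, 171 and 166 CPM in neurites and 86.2, 95.9 and 109 CPM in soma, an LR of 0.82 (standard error 0.11, adjusted p = 6.7e-06). Hand2 was at 289, 295 and 263 CPM in neurites and 159, 187 and 192 CPM in soma, an LR of 0.65 (standard error 0.10, adjusted p = 4.9e-05). Upper-quartile scaling moved the median LR of all genes in N2A cells to -0.33, and both members stayed called and above 0. On the TPM scale, however, both ran the other way in the same libraries. Phox2a was at 81.4 to 137 TPM in neurites and 148 to 210 TPM in soma, and Hand2 at 67.5 to 122 TPM and 141 to 198 TPM. The LRs of the other 5 tested members had adjusted p of 0.064 to 0.62.

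In the lists, cofactor and synthesis genes had called LRs above 0 for 5 of 7 genes in CAD and 6 of 7 in N2A cells and below 0 for none of them, led by Gchfr (1.26) and Spr (0.99) in CAD and by Pcbd1 (1.39) and Spr (1.38) in N2A cells. Dense-core vesicle genes had called LRs below 0 for 8 of 9 tested genes in N2A cells, led by Vgf (-1.07) and Chgb (-0.81), while in CAD cells 1 of 12 was above 0 (Npy, 1.09) and 1 below 0 (Vgf, -0.48). These counts stand beside 41.3% of all tested genes called in CAD cells, 4103 above and 3064 below 0. In N2A cells 59.2% of all tested genes were called, 5825 above and 4773 below 0.

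The knockout did not move the LR of any member past the test. In CAD cells 0 of 7 tested members changed LR by edgeR's test, against a background of 0.432%, with a median of -0.12 for the members and -0.0049 for all genes. DESeq2 called 0 members as well, and 2 members had an unadjusted p under 0.05, Slc18a1 (p of 0.015, adjusted p = 0.31) and Ddc (adjusted p = 0.37). Over all tested genes, 1819 of 17343 had an unadjusted p under 0.05 by edgeR's test there. In N2A cells 0 of 7 members changed by edgeR's test, against a background of 0.1%, with a median of -0.38 for the members and -0.01 for all genes. Here Gata3 (-0.52, adjusted p = 0.036), Phox2a (-0.53, adjusted p = 0.044) and Hand2 (-0.45, adjusted p = 0.062) all had an unadjusted p under 0.05, and DESeq2 called all 3. Over all tested genes, 5582 of 17912 had an unadjusted p under 0.05 by edgeR's test in this comparison. DESeq2 also called 1909 of all genes in it, where edgeR called 18.

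The transgene experiment asked whether a disease mutation in TDP-43 has effects of its own. Between Q331K and WT TDP-43, 0 of 6 tested members were called in soma, in neurites or in the change of LR, against a background of 0% in each, by edgeR's test over 13940 genes. Across all genes, 995, 1372 and 605 had an unadjusted p under 0.05 in these comparisons, and DESeq2 called 0, 14 and 0 genes and none of the members. The median log2 values of the members were 0.08 in soma, 0.20 in neurites and -0.05 for the change of LR, against -0.0018, -0.0098 and 0.0052 for all genes. Of the members, Slc18a1 in soma had an unadjusted p under 0.05, with 20.1, 16.3 and 15.8 CPM in Q331K and 15.3, 12.9 and 11.2 CPM in WT libraries (adjusted p = 0.59). Dbh was at 11.5 to 16.1 CPM in Q331K and 8.93 to 16.4 CPM in WT soma (adjusted p = 0.99). Th was at 3.59 to 4.81 CPM and 2.82 to 4.32 CPM (adjusted p = 0.79), Hand2 at 377 to 385 CPM and 359 to 372 CPM (adjusted p = 0.93), and Phox2a at 62.7 to 64.1 CPM and 49.5 to 67.0 CPM (adjusted p = 0.87). No gene of the other lists was called either. These libraries were the shallowest, and their values were normalized separately from those of the knockout lines.

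The LRs of the members in transgenic CAD cells with WT TDP-43 had 1 of 6 tested members called, below 0, against a background of 27.5%, with a median of -0.22 for the members and -0.01 for all genes. It was Slc18a1, at 8.10, 9.39 and 7.25 CPM in neurites and 15.3, 12.9 and 11.2 CPM in soma (LR -0.67, standard error 0.16, adjusted p = 0.0035). The call was lost with length-scaled counts (adjusted p = 0.079) and without replicate 1 (0.048) or 2 (0.018). Th in these cells was at 3.82 to 5.00 CPM in neurites and 2.82 to 4.32 CPM in soma (adjusted p = 0.24).

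Ordering the 12 groups by TPM shows where each member was most and least abundant. Dbh was highest in CAD KO soma (43.8 ± 8.88 TPM, SD, n = 3), whose range did not overlap that of the next group, CAD WT soma (15.3 ± 4.72 TPM), and lowest in N2A neurites (0.247 ± 0.0498 TPM in WT). Slc18a1 was highest in CAD WT soma (25.7 ± 6.76 TPM), with no overlap with the transgenic Q331K soma that followed (13.6 ± 1.01 TPM). Phox2a was highest in N2A KO soma (304 ± 21.6 TPM), above CAD WT soma (204 ± 39.5 TPM) without overlap, and the groups from the second to the seventh place overlapped their neighbours. Hand2 was highest in transgenic CAD soma (473 ± 16.0 TPM with WT TDP-43), Gata3 in N2A WT soma (14.3 ± 1.36 TPM) and Th in transgenic Q331K soma (5.40 ± 0.425 TPM), each overlapping the next group. Neurite groups sat below the soma groups of the same line and genotype on the TPM scale for all 7 tested members, Th included. On the TMM-scaled CPM scale used for the tests, a number of neurite group means were the higher ones. Among them were those of Phox2a and Hand2 in CAD and N2A cells and of Th in CAD cells. Those of Th and Phox2a in the transgenic cells and of Gata3 in WT CAD and N2A cells were also higher. Levels set between the transgene and the knockout experiments come from separate index builds, of 133618 and 135181 transcripts.

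Except for Ddc, the transcripts behind these sums were mostly coding ones. Averaged over the CAD WT soma libraries, Dbh-201 held 99.9% ± 0.0725 (SD, n = 3) of the gene's estimated counts, Phox2a-201 97.3% ± 0.407, Slc18a1-201 90.5% ± 0.829 and Th-201 84.4% ± 11.6. Hand2 has a single annotated transcript, and Gata3-201 held at least 99.02% in every group. Over the 12 groups, Slc18a1-201 ranged from 86.1% to 98.7% and Th-201 from 69.8% to 96.1%.

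The genes' places in GRCm38 bear on the counting, since the sources used here do not state whether it used strand. Th (ENSMUSG00000000214) lies on chromosome 7 from 142892752 to 142931128 (minus strand) and Dbh (ENSMUSG00000000889) on chromosome 2 from 27165233 to 27183200 (plus), and no annotated gene overlaps either. Hand2 (ENSMUSG00000038193; chromosome 8, 57320983 to 57324633, plus) is overlapped by the antisense gene Hand2os1, which held 937 to 2944 estimated counts per library, 19.8% of those of Hand2. The last bases of Phox2a (ENSMUSG00000007946; chromosome 7, 101818313 to 101822726, plus) overlap Inppl1 on the other strand, with 120% of its counts. Slc18a1 (ENSMUSG00000036330; chromosome 8, 69037711 to 69089235, minus) overlaps the abundant gene Atp6v1b2 at its start. Atp6v1b2, on the other strand, held 3913 to 17573 estimated counts per library, 2668% of those of Slc18a1. Gata3 (ENSMUSG00000015619; chromosome 2, 9857078 to 9890034, minus) is overlapped by 3 genes, the most counted at 0 to 110 counts (6.42% of Gata3's). Ddc and Slc18a2 each have an opposite-strand partner of at most 9 and 15 counts, 18.6% and 96.3% of their own. Without strand, reads of such partners cannot be told apart, so every member except Th and Dbh carries this doubt.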

How the data were processed

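RNA was measured by poly(A)-selected RNA-seq in 36 libraries of soma and neurite fractions. Per the labels and the study's methods, the authors trimmed reads with cutadapt and quantified transcripts with Salmon on mouse transcripts (mm10). The deposited values are estimated counts and TPM per transcript. Here both were summed to genes with GENCODE M21 (GRCm38), and counts were rounded. The main test was edgeR 4.0.16 (R 4.3.3) quasi-likelihood with TMM scaling and filterByExpr, one 4-group model per experiment and one 8-group model of the knockout lines, called at an adjusted p below 0.01. The scripts were tested on simulated data. DESeq2 1.42.0, other scalings, other filters, length-scaled counts, a replicate block, a culture block for the LRs and each replicate left out were tried as alternatives.

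The members and the 12 other lists (133 genes) were chosen with earlier results of these data known. From each list at most 4 called genes with the largest changes per comparison are named. The pairing of replicate numbers was checked as the correlation of deviations from group means. Every correlation was over 0.1 only between N2A soma WT and KO, where 2 of 3 numbers correlated most with their own number. Libraries held 9783050 to 32895542 estimated counts, so genes with few counts are measured imprecisely. Nothing says more of the replicates than that they are separate cultures of a line derived from clones or of a pool. The strand setting of the counting is not given in the sources used here. RefSeq promoters (GRCm38.p6) gave the promoter windows. Other experiments of the series were not used here. Some genes of the lists are not reported here.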

Additional observations from a re-analysis of the deposited data

Results flagged for a closer look

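The knockout effect on 3 members in soma and 1 in neurites differed between CAD and N2A cells when the difference itself was tested with edgeR's quasi-likelihood test. In soma the difference, CAD minus N2A on the log2 scale, was 1.30 for Dbh, -1.02 for Slc18a1 and -0.91 for Phox2a, and in neurites it was 1.33 for Dbh. Dbh and Slc18a1 were below 4 CPM in every N2A library, so their N2A effects rest on few counts. The 3 soma differences were no longer called without replicate 2, nor was the neurite difference without replicate 1 or 2. Line, clone, medium and preparation cannot be told apart.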

How the results depend on the processing

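Of 30 called member values, 18 stayed past the threshold under every alternative run, and none of the 273 alternative values changed sign, but 29 were no longer past it. Of these losses, 12 came from leaving out replicate 2 and 6 from length-scaled counts. The replicate block changed no call of a called value, and it raised the members called in the neurite knockout effect between lines from 1 to 2 and those with a called LR in WT CAD cells from 2 to 3, in both cases by Phox2a (-0.47, adjusted p = 0.0072, and 0.26, adjusted p = 0.0025, edgeR). Over all genes, the block called 2272 of 19700 in the former comparison and 7598 of 17343 in the latter. Numbers of members called changed as follows. For the LR in WT CAD cells (2), 4 were called at an FDR of 0.05 (9394 of all 17343 genes) and 0 to 1 with a replicate left out. For N2A soma (2) it was 1 to 2 with a replicate left out. For N2A neurites (2) it was 1 with length-scaled counts and 0 to 2 with a replicate left out. For the LR in WT N2A cells (2) it was 4 with at least 10 counts in every library, where 9115 of all 13310 genes were called. For the LR change in N2A cells (0) it was 2 at an FDR of 0.05, 3 with DESeq2 and 1 without a filter. For the LR in WT transgenic cells (1) it was 2 without a filter (4216 of all 25761 genes), 0 with length-scaled counts and 0 to 2 with a replicate left out. For the soma knockout effect between lines (3) it was 0 to 3 with a replicate left out. For the neurite effect (1) it was 3 at an FDR of 0.05, with DESeq2, with upper-quartile scaling and with at least 10 counts, 0 with length-scaled counts and 0 to 2 with a replicate left out. Over all genes, this effect was called for 2568 of 19693 with DESeq2, 2426 of 19700 with upper-quartile scaling and 2550 of 12314 with at least 10 counts. The cause was not tested. By TPM in place of counts, Ddc-208 held 69.4% of its gene (81.9% by counts), Dbh-201 96.0%, Slc18a1-201 76.7% and Phox2a-201 93.6%, and the 5-mer density of Th was 17.9 per kb in its most-counted transcript.

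Over all genes, the numbers called fell most without replicate 2, from 3950 to 1830 in CAD soma, 4380 to 2084 in CAD neurites, 7167 to 4256 and 10598 to 6850 for the LR in WT CAD and N2A cells, 2877 to 511 in N2A soma, 2074 to 437 in N2A neurites, 3837 to 1750 for the transgenic LR, and 2070 to 240 and 1808 to 430 for the soma and neurite effects between lines. Without replicate 1 or 3 they were 2542 (CAD soma), 1601 (N2A soma), 1292 and 1058 (N2A neurites), 1769 (transgenic LR), 829 (soma effect) and 1168 and 1090 (neurite effect). At an FDR of 0.05 they were 5256 in N2A soma, 3769 in N2A neurites, and 3954 and 3072 for the soma and neurite effects, and the soma effect had 1362 with length-scaled counts. The LR change in N2A cells had 18 calls with edgeR, 1909 with DESeq2, 1515 at an FDR of 0.05, 922 without a filter, 145 with upper-quartile scaling, 132 with at least 10 counts, 42 with the replicate block and 3 to 7 with a replicate left out. That in CAD cells had 75, and 223 with DESeq2, 166 at an FDR of 0.05, 280 without a filter and 18 without replicate 2. Without a filter the Q331K comparisons had 141 (soma), 103 (neurites) and 53 (LR change) calls, and 0 to 1 with a replicate left out.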

Other observations

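The genes whose log2 CPM followed each member most closely over the 36 libraries are given as a description, since the libraries share line and fraction. For Dbh they were Kcna4 (Pearson r 0.985), Angpt2 (0.982) and Gjd2 (0.982), and for Slc18a1 Spint1 (0.982), Slitrk1 (0.981) and Itga9 (0.975). For Th they included Lgals7 (0.967) and Rgs2 (0.961), and for Phox2a they were Ier5l (0.967), Vat1 (0.942) and Snx18 (0.941). For Hand2 they were Aldh2 (0.9601), Bcl2l13 (0.957) and 1110051M20Rik (0.955), and for Gata3 Plcxd2 (0.962), 5830444B04Rik (0.961) and Acsl1 (0.961). Ddc had weaker likeness, at most 0.819 (Gm47372).

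Of 8 tested fibroblast, immune and endothelial markers in CAD KO soma, the endothelial cadherin gene Cdh5 fell by 3.29 on the log2 scale and Pecam1 rose by 0.38. In N2A KO soma, Hdc, a histamine-synthesis gene of the list of other transmitters, rose by 1.20.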
